A study of Mus musculus with 44 samples.

Results

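Cullin-2 ubiquitin ligases and their FEM1-type receptors were followed here through 10 genes of the 46831 in the count table, taken by symbol. They are the FEM1 receptors Fem1a, Fem1b and Fem1c, the scaffold Cul2, the RING subunit Rbx1, and the further receptors Vhl, Klhdc2, Klhdc3, Zer1 and Zyg11b. All 10 symbols were in the table, each as a single gene. Fem1b is the gene that the study itself singled out from these libraries, so its values here are not independent evidence on it.

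A Cullin-2 ligase holds its substrate through an exchangeable receptor, which binds the elongin B and elongin C adaptors at one end of CUL2, while RBX1 at the other end brings in the ubiquitin-conjugating enzyme. FEM1 proteins, KLHDC2 and KLHDC3 read degrons at the carboxyl end of proteins, ZER1 and ZYG11B read glycine at the amino end, and VHL binds hydroxylated HIF alpha subunits, the oxygen-sensing factors that also act in growth plate cartilage. FEM1B is known to bind FNIP1 and GLI1, and GLI proteins carry Hedgehog signals in the growth plate.

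Cells were sorted from the epiphysis of long bones of C57Bl6 mice (C57BL/6J in the study's methods) at postnatal day 3 (P3) with no treatment. The 8 WT populations were 3 stem and progenitor populations, namely skeletal stem cells (SSC), pre-BCSP and BCSP, and 5 downstream populations, PCP, THY, BLSP, 6C3 and HEC. By the study's text, the WT mice of its knockout comparison were Mettl3 fl/fl controls. Mettl3cko mice carried Mettl3 fl/fl with Col2a1-Cre, which is active in cells that express type II collagen, so cells without Cre activity keep the gene. Whether the 5 downstream WT populations came from such controls is not stated. Each of the 8 WT and 3 Mettl3cko populations gave 2 libraries of RNA precipitated with an m6A antibody (IP) and 2 of RNA taken before it (input), 44 in all. N6-methyladenosine (m6A) is a methyl mark that METTL3 places on RNA, mostly within GGAC-like letters.

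WT input libraries held 19795666 to 44046651 counts and WT IP libraries 16480027 to 35856651. Input libraries labelled Mettl3cko held 30050178 to 35325482 counts and their IP libraries 22056571 to 33126857. Levels are given as CPM, counts scaled to a common library total after TMM scaling over all 44 libraries. In the WT input libraries Ptprc, the blood marker excluded by the sort, was at 0 in the stem and progenitor populations and at most 0.82 CPM downstream, and Tek, the other excluded marker, reached at most 8.17 CPM. The 5 blood markers, Ptprc among them, summed to 14.3 to 24.9 CPM in WT stem and progenitor libraries and to 11.0 to 20.2 downstream. The type II collagen gene Col2a1, which marks cartilage, was at 70918 to 87454 CPM in stem and progenitor libraries. GEO's genotype entry says wild type throughout, so the knockout label rests on sample titles and on the column names of the counts. Mettl3 itself had 454 and 449 counts in the 2 WT SSC input libraries against 486 and 593 in those labelled Mettl3cko, 369 and 526 against 759 and 741 in pre-BCSP, and 571 and 618 against 458 and 607 in BCSP. In CPM both libraries labelled Mettl3cko lay above both WT libraries in SSC (17.0 and 18.8 against 15.8 and 15.9) and pre-BCSP (23.0 and 23.5 against 12.5 and 16.6) and below them in BCSP (16.7 and 18.4 against 18.6 and 20.3). The log2 difference was 0.19 in SSC, 0.69 in pre-BCSP and -0.15 in BCSP, and 0.25 on average (adjusted p = 0.362, edgeR's quasi-likelihood test), so no loss of Mettl3 counts was detected. Counts cover the whole gene, so they need not show the loss of floxed exons, and they do not check the label. The study itself reported Mettl3 deletion in its knockout mice by qRT-PCR and western blot, and a lower m6A level by dot blot.

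The first letters to look at are the candidate m6A sequences. The motif GGACT was searched on the sense strand of 1 GENCODE vM21 transcript per gene (GRCm38). GGACN, as counted here, includes it and the other GGAC motifs except GGACG. The 6 windows below are from Fem1b, Zer1 and Zyg11b, which were called m6A-tagged in at least 1 population and have such a match, and from Klhdc3, which has the densest motifs of the 10 and was recovered below its input. They are the first matches after the stop codon, at most 2 a gene and 1 of the 7 in Zyg11b. Each is 29 bases of the 3′UTR, 5′ to 3′ along the transcript, with GGACT in capitals.
Fem1b site 1, chr9:62796031-62796059, minus strand, 46 bases after the stop codon: ctaaaaagtaaaGGACTttaatcacagac
Fem1b site 2, chr9:62795576-62795604, minus strand, 501 bases after the stop codon: tttacatcaggaGGACTtgaaacacttag
Zer1, chr2:30098673-30098701, minus strand, 97 bases after the stop codon: aagaaacagcgaGGACTtgcacagccgac
Zyg11b site 1, chr4:108234650-108234678, minus strand, 1338 bases after the stop codon: cagggccagcatGGACTagacagcaagag
Klhdc3 site 1, chr17:46674986-46675014, minus strand, 84 bases after the stop codon: cctttggaccctGGACTcggtatacctcc
Klhdc3 site 2, chr17:46674956-46674984, minus strand, 114 bases after the stop codon: cgtggagttgatGGACTagaggtgttttc

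Fem1b has 3 GGACT matches in a 3′UTR of 4272 bases, Zyg11b 7 in 6280 bases, and Fem1a, Fem1c and Klhdc3 2 each. Cul2 and Zer1 have 1 each, and Vhl and Klhdc2 none in the 3′UTR. Rbx1 has no GGACT in its whole transcript and 5 GGACN. Per kilobase of transcript, GGACN was densest in Klhdc3 at 8.10, the 98.0th percentile of 15406 genes, while Fem1b was at 3.39, the 41.7th percentile. By number in the 3′UTR, Fem1b had 14 GGACN, the 95.5th percentile, in a 3′UTR at the 94.8th percentile of length. Of those 15406 genes 57.2% have at least 1 GGACT in the 3′UTR, with a median of 1. The matches are letters in a reference, and counts per gene do not place m6A within a transcript.

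Lengths here are the exons of all annotated transcripts of a gene, merged. Per kilobase of that length, the mean WT input level was highest for Klhdc3 at 38.1 CPM per kb, followed by Rbx1 at 28.1, Klhdc2 at 20.1, Vhl at 13.6 and Cul2 at 11.0. The 3 FEM1 receptors were lower, with Fem1b at 5.73, Fem1c at 4.24 and Fem1a at 2.08 CPM per kb, and Zyg11b at 1.83 and Zer1 at 1.11 were the lowest. Fem1b was thus the most abundant FEM1 mRNA per length on average. Between its highest and lowest population mean, each gene varied 1.39-fold (Cul2) to 2.17-fold (Vhl). Klhdc2 shares 166 exon bases with Nemf on the opposite strand and Klhdc3 shares 276 with Mea1, and the strand setting of the counting is not given in the sources used here, so reads in those stretches cannot be told apart.

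**Figure D1:**
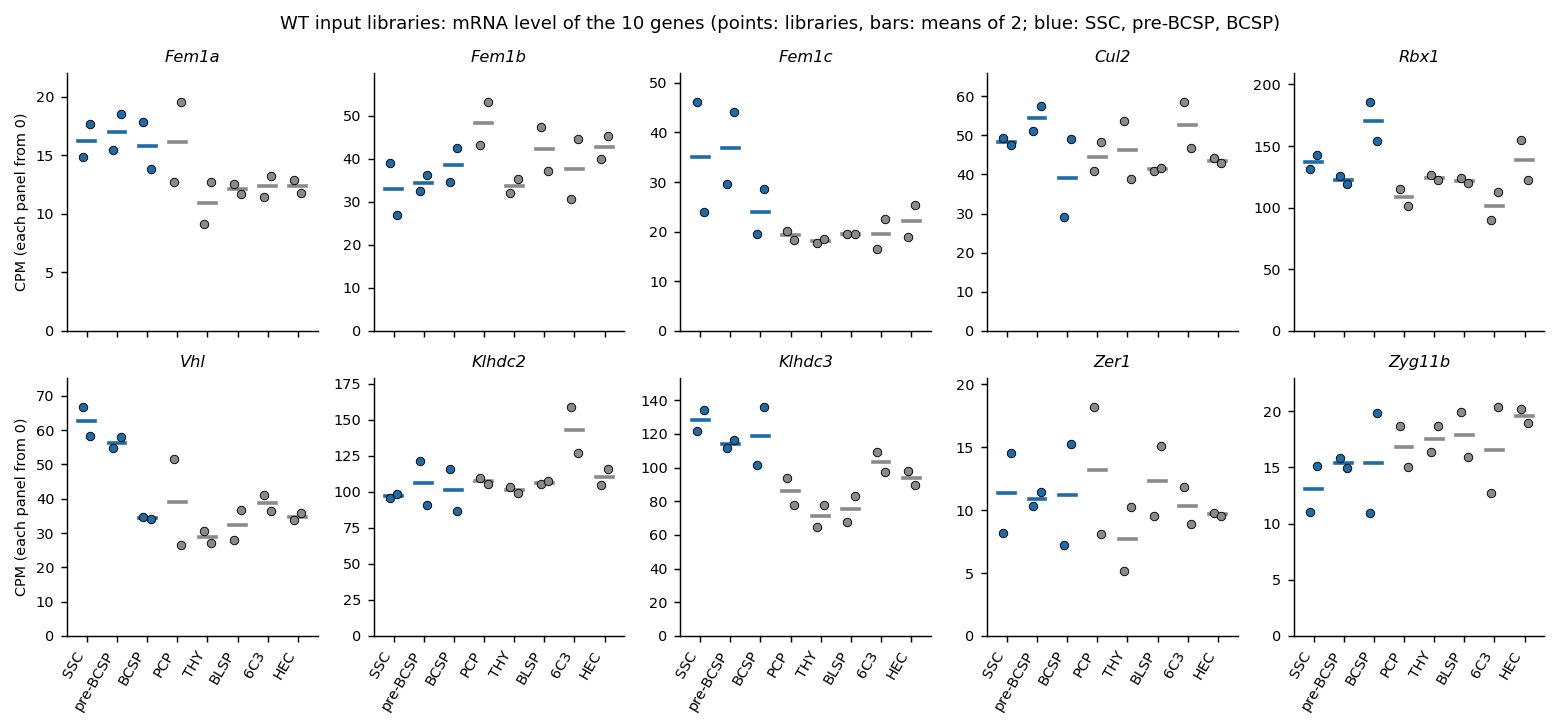
Input level of the 10 genes in CPM, each panel from 0, in each WT population, 1 point per library and a bar at the mean of the 2 libraries. Vhl stands highest in SSC at 66.8 and 58.3 CPM, while the Fem1b points of neighbouring populations overlap.

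Fem1b mRNA varied 1.46-fold between the highest and the lowest mean of the 8 WT populations. Its 2 input libraries gave 39.0 and 27.1 CPM in SSC, 32.7 and 36.2 in pre-BCSP, 34.6 and 42.6 in BCSP, 43.2 and 53.3 in PCP, 32.2 and 35.3 in THY, 47.4 and 37.1 in BLSP, 30.8 and 44.7 in 6C3, and 40.0 and 45.4 in HEC. By mean the order ran from PCP at 48.3 CPM through HEC, BLSP, BCSP, 6C3, pre-BCSP and THY to SSC at 33.0, and every pair of neighbours in it overlapped. Among the 8 populations no difference was detected (adjusted p = 0.312, edgeR's quasi-likelihood test).

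Fem1c, a paralogue that reads degrons ending in arginine, had 46.1 and 23.9 CPM in SSC, 29.7 and 44.0 in pre-BCSP, 19.5 and 28.6 in BCSP, 20.1 and 18.4 in PCP, 17.7 and 18.5 in THY, 19.5 and 19.4 in BLSP, 16.5 and 22.6 in 6C3, and 18.9 and 25.4 in HEC. The means of pre-BCSP and SSC, 36.8 and 35.0 CPM, led the order, but the SSC libraries overlapped those of BCSP and HEC. Fem1a, the least abundant of the 3 per length, ranged from 13.8 to 18.5 CPM in the 6 stem and progenitor libraries and from 9.12 to 19.6 in the 10 downstream libraries.

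The scaffold and the RING subunit followed no order along the hierarchy. Cul2 had 49.3 and 47.5 CPM in SSC, 51.1 and 57.6 in pre-BCSP, 29.2 and 49.1 in BCSP, and 38.9 to 58.5 in the 10 downstream libraries, with a median of 43.6. Rbx1, which also serves the other cullins that use it, ranged from 119 to 186 CPM in stem and progenitor libraries and from 90.0 to 155 downstream. Neither differed detectably among the 8 populations (adjusted p = 0.684 for Cul2 and 0.109 for Rbx1, edgeR's quasi-likelihood test).

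Of the other receptors, Vhl was highest in SSC and pre-BCSP. It had 66.8 and 58.3 CPM in SSC, 54.7 and 57.9 in pre-BCSP, 34.6 and 34.1 in BCSP, 51.6 and 26.6 in PCP, 30.6 and 27.1 in THY, 27.9 and 36.8 in BLSP, 41.0 and 36.3 in 6C3, and 33.7 and 35.9 in HEC. The SSC libraries lay above those of every other population, and the pre-BCSP libraries above those of all the rest, while BCSP lay within the downstream range.

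Klhdc3 had 122 and 134 CPM in SSC, 112 and 116 in pre-BCSP, 102 and 136 in BCSP, 93.9 and 77.7 in PCP, 64.8 and 77.5 in THY, 67.8 and 83.3 in BLSP, 109 and 97.2 in 6C3, and 98.2 and 89.7 in HEC. Its lowest stem and progenitor library, at 102 CPM, was below 1 of the 10 downstream libraries, that of 6C3 at 109. Klhdc2, which reads glycine at carboxyl ends, ran from 86.8 to 121 CPM in stem and progenitor libraries and from 98.9 to 159 downstream, with 6C3 highest at 159 and 127. Zer1 (5.17 to 18.2 CPM over the 16 libraries) and Zyg11b (10.9 to 20.4 CPM) overlapped between all neighbouring populations.

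Across the 8 WT populations 2 of the 10 genes differed at an adjusted p under 0.05, Vhl (0.0262) and Klhdc3 (0.0455), against 40.1% of the 20060 genes tested (edgeR's quasi-likelihood test). Of 16 fits that each left out 1 library Vhl was called in 12 and Klhdc3 in 4, and Klhdc3 was at an adjusted p of 0.0523 with the replicate block and 0.0639 without the filter on low counts. In the contrast of the 3 stem and progenitor populations with the 5 downstream ones, 3 of the 10 were higher and none lower, against 51.4% of all genes called, 23.1% higher and 28.3% lower. Fem1c was higher by 0.59 on the log2 scale (SE 0.16, adjusted p = 0.0048), Vhl by 0.44 (SE 0.13, adjusted p = 0.00963) and Klhdc3 by 0.42 (SE 0.10, adjusted p = 0.00277). The share of members called was thus below that of all genes. Fem1b went the other way with -0.29 (SE 0.13, adjusted p = 0.0694), which missed the threshold, and passed it without SSC input replicate 1 (-0.38, adjusted p = 0.0392) or without 6C3 input replicate 1 (-0.34, adjusted p = 0.0321). The other 6 had -0.36 (Zyg11b), -0.24 (Klhdc2), -0.04 (Cul2), 0.01 (Zer1), 0.18 (Rbx1) and 0.28 (Fem1a), none past the threshold. The median log2 difference was 0.10 over the 10 genes and -0.11 over all genes tested.

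Between SSC and THY, a pair that the study compared by PCR of chosen genes, 28.5% of all genes were called and 12.6% were higher in SSC. Vhl was 0.99 higher on the log2 scale in SSC (SE 0.25, adjusted p = 0.00759) and Klhdc3 0.73 higher (SE 0.20, adjusted p = 0.012). Vhl missed the threshold without THY input replicate 2 (adjusted p = 0.0842), and Klhdc3 without SSC input replicate 2 (0.0973) or THY input replicate 1 (0.129). Fem1c was at 0.82 (SE 0.31, adjusted p = 0.0572) and Fem1b at -0.16 (adjusted p = 0.680), so no difference of Fem1b mRNA was detected here. By RT-qPCR the study reported lower Fem1b mRNA in SSC than in THY, and by MeRIP-PCR a higher m6A level.

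The populations compared also differed in marker genes. Summed over the 5 bone markers, the 6 stem and progenitor input libraries held 5468 to 11546 CPM and the 10 downstream libraries 62334 to 141533. Nearly all of that sum was Col1a1, at 4234 to 11412 CPM against 62224 to 141211. The others, Bglap, Sp7, Ibsp and Alpl, overlapped between the groups, as with Alpl at 23.5 to 654 CPM against 36.6 to 395. The 5 cartilage markers summed to 82130 to 99905 CPM against 6964 to 92365, and the 4 red cell markers to 0.52 to 3.97 CPM against 10.6 to 85.9. No gene of these 3 lists was at 0 in all libraries of either group. The part of these markers in the differences above was not tested, and in sorted bulk RNA fewer cells of a type and less RNA per cell cannot be told apart.

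The IP to input ratio asks how strongly an mRNA was recovered by the m6A antibody relative to its input level. It is given as log2 IP over input after TMM scaling, so 0 marks the recovery of a typical gene rather than the absence of m6A. An mRNA was called m6A-tagged with the thresholds of the study, a log2 value above 1 and an unadjusted p under 0.05, applied to an edgeR fit of 2 IP against 2 input libraries, where the study used DESeq2.

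Fem1b was recovered above its input in SSC and pre-BCSP and not in the downstream populations. Its IP level was 68.8 and 71.4 CPM in SSC, 59.3 and 65.1 in pre-BCSP, 46.4 and 23.4 in BCSP, 30.7 and 29.4 in PCP, 30.2 and 39.5 in THY, 40.8 and 28.2 in BLSP, 34.5 and 26.7 in 6C3, and 25.7 and 33.1 in HEC. The log2 ratio per replicate was 0.82 and 1.40 in SSC, 0.86 and 0.84 in pre-BCSP, 0.42 and -0.87 in BCSP, -0.49 and -0.86 in PCP, -0.09 and 0.16 in THY, -0.22 and -0.40 in BLSP, 0.16 and -0.74 in 6C3, and -0.63 and -0.46 in HEC. All 4 values of SSC and pre-BCSP lay above all 10 downstream values, and BCSP was split, with replicate 1 above them and replicate 2 below.

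**Figure D2:**
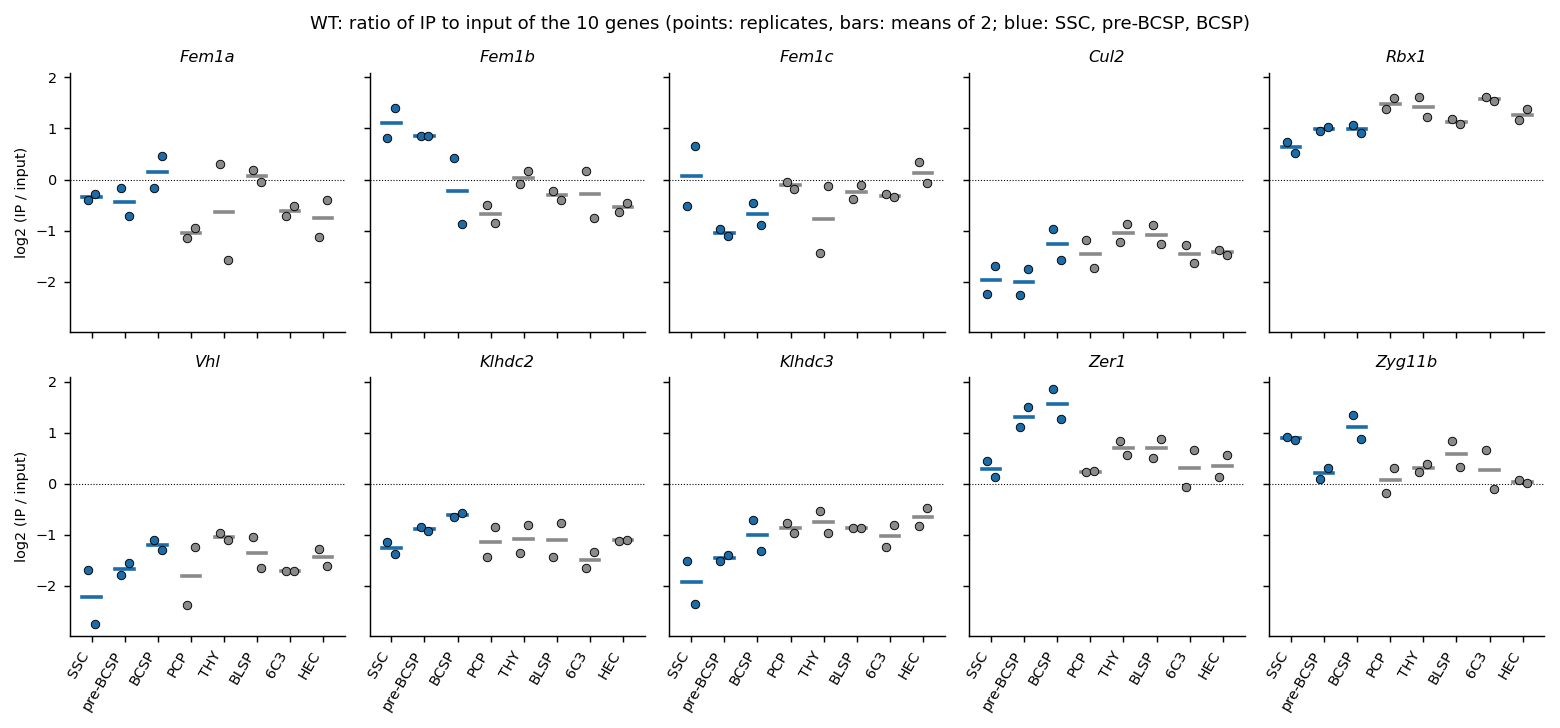
Log2 IP over input of the 10 genes in each WT population, 1 point per pair of libraries of a replicate number and a bar at the mean. Fem1b is positive in SSC and pre-BCSP, whereas Rbx1 is positive throughout and Cul2, Vhl, Klhdc2 and Klhdc3 are negative throughout.

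In the fits of single populations Fem1b was m6A-tagged in 1 of 8, SSC, at 1.18 (SE 0.27, unadjusted p = 0.00541, adjusted p = 0.0531). Without SSC input replicate 2 it was 0.93 and no longer called. In pre-BCSP it was 0.93 (SE 0.20, adjusted p = 0.0309), under the required log2 value of 1. It was -0.12 in BCSP, 0.08 in THY, -0.73 in PCP, -0.30 in 6C3, -0.36 in BLSP and -0.47 in HEC.

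The RING subunit Rbx1 had lower values in stem and progenitor populations than downstream, and edgeR's test of that difference, given below, did not pass. Its log2 ratio was 0.74 and 0.53 in SSC, 0.96 and 1.03 in pre-BCSP, 1.06 and 0.91 in BCSP, 1.37 and 1.60 in PCP, 1.62 and 1.23 in THY, 1.18 and 1.09 in BLSP, 1.62 and 1.55 in 6C3, and 1.17 and 1.37 in HEC. The 6 stem and progenitor values, 0.53 to 1.06, all lay below the 10 downstream values, 1.09 to 1.62. Of the 25365 genes tested 1.08% had such a gap in this direction and 0.552% in the other, and no other member had one in either. By the fits Rbx1 was m6A-tagged in 7 of 8 populations, from 1.03 in BCSP to 1.58 in 6C3, and was at 0.73 in SSC. In BLSP it was at 1.07, and the call was lost without BLSP input replicate 2 (0.92), BLSP IP replicate 1 (0.95), without the filter on low counts (0.94) and in 1 fit of all populations (0.95).

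Zer1 and Zyg11b, both readers of amino-terminal glycine, were tagged in some stem and progenitor populations and in none downstream, and the test of that difference, given below, did not pass for either. Zer1 was at 1.42 in pre-BCSP (adjusted p = 0.0335) and 1.52 in BCSP (adjusted p = 0.114), with per-replicate ratios of 1.12 and 1.51 and of 1.85 and 1.26, and at 0.19 to 0.70 in the other 6. Zyg11b was at 1.10 in BCSP (unadjusted p = 0.0369) and 0.99 in SSC. Both are low genes, Zer1 at 7.20 to 15.2 CPM in those input libraries.

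Members tagged numbered 1 of 10 in SSC (Fem1b), 2 in pre-BCSP (Rbx1 and Zer1), 3 in BCSP (Rbx1, Zer1 and Zyg11b), and 1, Rbx1, in each of PCP, THY, BLSP, 6C3 and HEC. Of all genes tested 10.4% were tagged in SSC, 12% in pre-BCSP, 6.67% in BCSP, 12.4% in THY, 10.6% in PCP, 14.5% in 6C3, 12.4% in BLSP and 13.5% in HEC. Each of the 3 calls in BCSP was lost without at least 1 of its 4 libraries, and none of them passed an adjusted p.

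Cul2, Vhl and Klhdc3 were recovered below their input in every population at an unadjusted p under 0.05, and Klhdc2 in 7 of 8. The share of all genes lower at that p was 16.6% in SSC, 19.2% in pre-BCSP, 14.7% in BCSP, 21.7% in THY, 17.8% in PCP, 21.8% in 6C3, 22.3% in BLSP and 22.8% in HEC. Cul2 ran from -1.90 to -1.04, Vhl from -1.99 to -1.0, Klhdc3 from -1.80 to -0.58 and Klhdc2 from -1.50 to -0.58 on the log2 scale. Fem1a lay between -1.07 and 0.18 and Fem1c between -0.98 and 0.19, and neither was tagged in any population. Among the FEM1 receptors Fem1b was the one with a tagged call.

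In 1 fit of the 32 WT libraries, the mean log2 ratio of SSC, pre-BCSP and BCSP was compared with that of the 5 downstream populations. Fem1b was higher by 1.15 (SE 0.21, adjusted p = 0.00155, edgeR's quasi-likelihood test), and 5 of its 6 stem and progenitor values exceeded its highest downstream value. It was the 1 member called, where 4.84% of all genes were called and 3.06% were higher. The call held in each of 32 fits that left out 1 library, with values from 0.95 to 1.30. With DESeq2's size factors the value was 0.98, and the median of all genes moved from -0.08 to -0.24, so that relative to the median it was 1.23 and 1.22. That scaling also turned the split of all calls from 777 higher and 450 lower to 427 higher and 628 lower.

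Of the other members, Zer1 was at 0.75 (adjusted p = 0.304), Zyg11b at 0.66 (0.153), Klhdc2 at 0.46 (0.177), Klhdc3 at -0.44 (0.198) and Rbx1 at -0.31 (0.322), none past the threshold. DESeq2's test called Klhdc3 at -0.60 (adjusted p = 0.00699) and Rbx1 at -0.48 (adjusted p = 0.00507) as well. For any difference among the 8 populations, 0.485% of genes and none of the 10 were called, and Fem1b was at an adjusted p of 0.0523.

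Mettl3cko was compared with WT in input RNA to ask whether these mRNAs differ when METTL3 is deleted. Fem1b had more input RNA in each pair of libraries labelled Mettl3cko, with 65.4 and 44.1 CPM against 39.0 and 27.1 in SSC, 65.8 and 42.3 against 32.7 and 36.2 in pre-BCSP, and 50.2 and 47.7 against 34.6 and 42.6 in BCSP. In each population both libraries labelled Mettl3cko lay above both WT libraries. It was the 1 member of which this held in all 3 populations, in a background of 4.07% of 18655 genes higher and 4.44% lower in this way.

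**Figure D3:**
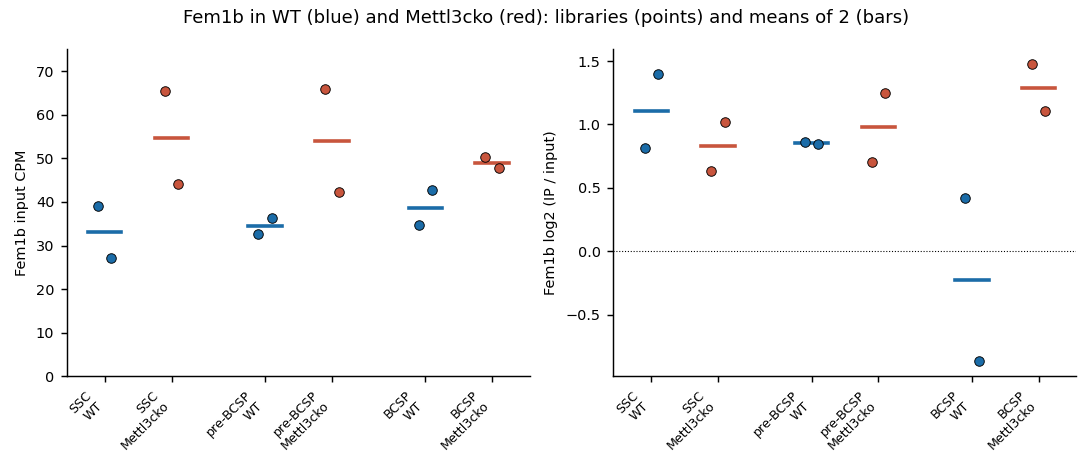
Fem1b in SSC, pre-BCSP and BCSP of WT and of libraries labelled Mettl3cko, as input CPM from 0 (left) and log2 IP over input (right), 1 point per replicate and a bar at the mean. The input points of the libraries labelled Mettl3cko, 42.3 to 65.8 CPM, lie above the WT points of the same population.

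By the thresholds of the study, here on edgeR's fits, a log2 difference beyond 0.5 with an unadjusted p under 0.05, Fem1b was higher in SSC by 0.73 (SE 0.27, unadjusted p = 0.0293, adjusted p = 0.281). It was at 0.67 in pre-BCSP (SE 0.29, unadjusted p = 0.0643) and 0.34 in BCSP (SE 0.24, unadjusted p = 0.188). The SSC call was lost without WT input replicate 2 (0.51) or without Mettl3cko input replicate 1 (0.45). Averaged over the 3 populations it was 0.59 (SE 0.16, adjusted p = 0.0512), just short of the threshold, with an adjusted p of 0.00835 by DESeq2's test. The test for a difference of its change among the 3 populations gave an unadjusted p of 0.546.

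Vhl was lower in SSC by the same rule at -0.70 (SE 0.20, unadjusted p = 0.00983, adjusted p = 0.210), with 41.3 and 35.4 CPM against 66.8 and 58.3 in WT. It was at -0.40 in pre-BCSP and 0.12 in BCSP, and the SSC call was lost without WT input replicate 1 (-0.60). Fem1c was higher in BCSP at 0.87 (SE 0.28, unadjusted p = 0.0157, adjusted p = 0.284), with 46.6 and 41.4 CPM against 19.5 and 28.6, and was at 0.39 in SSC and 0.52 in pre-BCSP, where its WT libraries spread from 23.9 to 46.1. The BCSP call was lost without WT input replicate 1 (0.62) or without Mettl3cko input replicate 1 (0.76). Cul2 was at 0.32, 0.18 and 0.58 in the 3 populations, with 59.3 and 61.3 CPM against 49.3 and 47.5 in SSC, and 58.8 and 58.4 against 29.2 and 49.1 in BCSP. Fem1a was at 0.12, -0.75 and -0.59, and no call was made for Cul2, Fem1a, Rbx1, Klhdc2, Klhdc3, Zer1 or Zyg11b.

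Members called were thus 2 of 10 in SSC, none in pre-BCSP and 1 in BCSP, where 14.0%, 8.36% and 12.9% of all genes were called. No gene of the whole table passed an adjusted p in edgeR's test of a single population, while 2363, 1341 and 2123 genes had an unadjusted p under 0.05 and DESeq2's test called 661, 158 and 548 after adjustment. Averaged over the 3 populations none of the 10 and 6.48% of all genes passed. For a difference of the change among populations 0 genes passed in edgeR's test, where 839 had an unadjusted p under 0.05 and DESeq2 called 41.

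**Figure D4:**
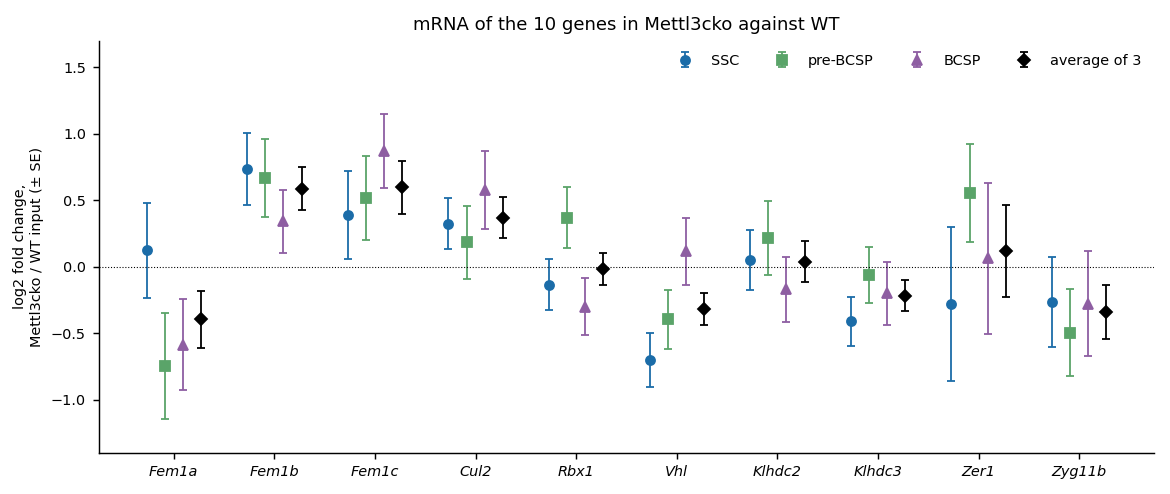
Log2 difference of input level between libraries labelled Mettl3cko and WT for the 10 genes in SSC, pre-BCSP, BCSP and on average, with bars of 1 SE from edgeR's fits. Fem1b is above 0 in all 3 populations, at 0.73, 0.67 and 0.34, and Vhl is at -0.70 in SSC.

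Red cell markers moved with the genotype labels as well. The 4 markers summed to 7.32 to 31.0 CPM in the 6 input libraries labelled Mettl3cko against 0.52 to 3.97 in WT, led by the globin gene Hba-a1 at 4.02 to 22.4 against 0.16 to 2.85 CPM, with none of the 4 at 0 in every library. The osteoclast markers (3 genes) summed to 63.5 to 117 CPM against 97.5 to 145. Nearly all of that sum was Ctsk, at 55.3 to 110 CPM against 88.5 to 133. Acp5 was at 5.85 to 23.2 CPM against 4.37 to 9.09, and Mmp9 at 0 to 4.17 against 0 to 6.47. The part of the red cell and osteoclast markers in these differences was not tested.

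The IP libraries labelled Mettl3cko limit what can be said of the ratio. Their replicates correlated at 0.444 to 0.538 over log2 CPM, against 0.767 to 0.887 for WT IP, and 17.1% to 27.3% of the 11633 genes with 10 or more counts in every input library had at most 3 counts in 1 of both replicates, against 1.02% to 5.37% for WT IP. Among the members, Vhl had 621 and 2 counts in the SSC IP replicates labelled Mettl3cko, Zer1 530 and 2, Klhdc2 151 and 3045, and Zyg11b 91 and 823. Zer1 also had 29 and 1017 counts in pre-BCSP and 2 and 1665 in BCSP, and Cul2 had 1110 and 63 in pre-BCSP and 1947 and 18 in BCSP. In all other conditions 0 members differed more than 4-fold between replicates.

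**Figure D5:**
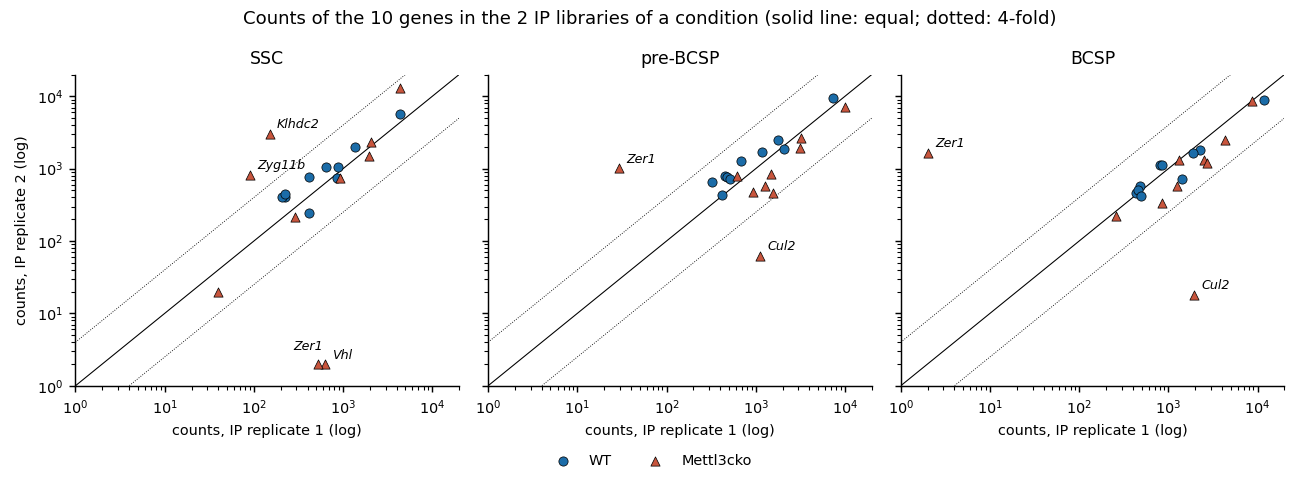
Counts of the 10 genes in IP replicate 1 (horizontal) and replicate 2 (vertical) in SSC, pre-BCSP and BCSP, both axes logarithmic, for WT and for libraries labelled Mettl3cko. WT points lie near the diagonal, and the members named in the panels, such as Vhl with 621 and 2 counts in SSC, lie far from it in libraries labelled Mettl3cko.

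Fem1b was not among those that scattered. Its IP level was 102 and 89.7 CPM in SSC, 108 and 100 in pre-BCSP and 140 and 103 in BCSP labelled Mettl3cko, above all WT IP libraries of the same populations. Its log2 ratio was 0.64 and 1.02 in SSC, 0.71 and 1.25 in pre-BCSP and 1.47 and 1.11 in BCSP, so SSC and pre-BCSP overlapped WT and BCSP lay above both WT values. The difference of the ratio from WT was -0.25 (SE 0.51) in SSC, 0.02 (SE 0.42) in pre-BCSP and 1.45 (SE 0.53, unadjusted p = 0.0261, adjusted p = 0.429) in BCSP, and 0.40 (SE 0.30, adjusted p = 0.644) on average. No lower ratio of Fem1b was thus detected in the libraries labelled Mettl3cko, and errors of this size leave room for differences of either sign in SSC and pre-BCSP. The scaling sets the ratio against a typical gene, so a loss of m6A shared by most genes need not show in it.

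None of the 10 passed an adjusted p for the ratio in a single population, where 0 genes passed in edgeR's test, 2505, 2087 and 1814 had an unadjusted p under 0.05, and DESeq2 called 1755, 983 and 717. Nor did any pass on average, where 3.94% of 20360 genes did and the median of all genes was -0.39, or for a change among populations, where 0.285% did. The ratio of Cul2 in SSC differed by -3.48 (SE 0.85, unadjusted p = 0.00412, adjusted p = 0.183), with 40 and 20 counts in the IP libraries labelled Mettl3cko. Klhdc3 in pre-BCSP was at 1.07 (unadjusted p = 0.0239, adjusted p = 0.331).

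The rest of the pathway was described from 4 lists, to be read against all genes, of which 23.1% were higher and 28.3% lower in stem and progenitor input RNA with a median log2 difference of -0.11. Of the genes listed as further CRL2 subunits and receptors, 6 of 7 were tested in input RNA. Lrrc41 (1.34) and the receptor gene Appbp2 (0.79) were higher in stem and progenitor populations, and Tceb2, which encodes the adaptor elongin B, was lower (-0.51). Tceb2 was tagged in all 8 populations at 1.38 to 2.23, as was Nedd8, the modifier that activates cullins, at 1.33 to 1.82. Lrrc41 had a lower ratio in stem and progenitor populations (-1.08, adjusted p = 0.00184).

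Of 26 genes for cullin activation and recycling 25 were tested, and 12 were higher and 4 lower in stem and progenitor input RNA, with a median of 0.28. Dcun1d5, a neddylation cofactor, was at -1.55, Cdc34, a ubiquitin-conjugating enzyme, at -1.26 and Cops8, a subunit of the COP9 signalosome that removes NEDD8, at 0.62. Cdc34 had a ratio higher by 1.94 there (adjusted p = 0.000524), Cand1, the exchange factor of receptors, by 0.84 and Dcun1d1 by 0.66. Cdc34 was tagged in 1 population, Dcun1d1 in 2 and Cand1, at -1.51 to -0.04, in 0. Among 8 genes, namely the other cullins and Rnf7, the paralogue of Rbx1, 4 were higher and 1 lower in stem and progenitor input RNA, led by Cul1 at 0.50, Cul3 at 0.57 and Rnf7 at 0.37. Cul3 was tagged in 7 of 8 populations, all but BCSP.

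Of 5 genes listed as substrates 2 were higher and 3 lower in stem and progenitor input RNA. The study names Gli1, and not Gli2, as a substrate of FEM1B. Gli2 was at 1.40, Epas1, the HIF-2 alpha gene and a VHL substrate, at -1.44 and Fnip1 at -0.93. Fnip1 was tagged in 5 populations, and Gli1 had a ratio higher by 1.06 in stem and progenitor populations (SE 0.24, adjusted p = 0.00853). Gli1 was tagged in 0 of the 8 populations, at -0.85 to 0.69. In libraries labelled Mettl3cko, Gli2 was lower by the thresholds of the study in SSC (-0.89, unadjusted p = 0.00478, adjusted p = 0.187) and BCSP (-0.92), and Gli1 in SSC (-0.77, unadjusted p = 0.0266, adjusted p = 0.269). By qRT-PCR the study reported no difference of Gli1 mRNA between the genotypes in SSC. The thresholds of the study called 1 of 25 activation genes in SSC (Nae1, -0.63), none in pre-BCSP and 5 in BCSP, where 14.0%, 8.36% and 12.9% of all genes were called, and of the 5 Cand1 (0.69) and Dcun1d3 (0.96) were higher and Ube2m (-1.18) lower. They called Cul4b lower in SSC (-0.87) and pre-BCSP (-1.28), Cul3 lower in BCSP (-0.92) and Lrrc41 higher in BCSP (0.59). Averaged over the 3 populations no gene of the 4 lists passed an adjusted p in input RNA, and for the ratio Tceb2 (1.05, adjusted p = 0.0183) and Cul7 (1.29, adjusted p = 0.0426) did.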

How the data were processed

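RNA before (input) and after (IP) m6A immunoprecipitation was sequenced by SLIM-seq in 44 libraries of sorted skeletal cells. The authors trimmed reads with fastp 0.20.1, aligned them to GRCm38 with HISAT2 2.2.1, counted them per gene with featureCounts 2.0.1 and deposited whole-number counts without normalization. Libraries came from pre-amplified cDNA cut by Tn5. The remaining deposited tables hold the authors' own comparisons (fold changes and p-values) and were not used. The count table has 46959 entries, of which 128 named 1-Mar or 2-Mar (at most 0.390% of a library's counts) were left out.

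Counts were tested in R 4.3.3 with edgeR 4.0.16 (quasi-likelihood F test, TMM, filterByExpr) across all genes that passed the filter, with Benjamini-Hochberg adjustment, and the 10 members were read from those fits, which all of them passed. SE is the log2 difference divided by the square root of F. Alternatives were DESeq2 1.42.0 (its size factors, its test), no filter, an adjusted p alone, a replicate block and leaving out each library. The scripts were tested on simulated data. Log2 CPM used a prior count of 2. Groups came from titles, with 2 replicates each, described by the study as independent experiments. A permutation of 2 against 2 cannot reach a p under 0.05. Same-numbered IP and input libraries were taken as pairs for the per-replicate ratios, since the study divided sorted cells of 1 batch between them. Deviations of the paired libraries correlated at 0.019 to 0.241, over 0.1 in 4 of 11 pairs. The main tests, with their SE and p-values, did not use the pairing. The replicate block was 1 term for the replicate number, shared by all populations of a fit. Motifs and positions came from GENCODE vM21. The named genes are the 10 members, Mettl3, and per list and comparison at most 3 called genes with the lowest adjusted p. Members and lists were chosen with earlier results of these data known.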

Additional observations from a re-analysis of the deposited data

Results flagged for a closer look

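The IP to input ratio of Fem1b differed between groups of WT populations: it was higher by 1.15 on the log2 scale in SSC, pre-BCSP and BCSP than in the 5 downstream populations (adjusted p = 0.00155, edgeR's quasi-likelihood test of the difference itself), and 5 of 6 stem and progenitor values lay above every downstream value. BCSP on its own was at -0.12, with replicate 1 at 0.42 and replicate 2 at -0.87, below every downstream value. With 2 libraries per condition no library could be tested for standing apart from its group.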

How the results depend on the processing

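Members called changed as follows, and the cause was not tested. Among WT populations 2 in mRNA became 4 by DESeq2's test and 1 with the replicate block. With an adjusted p alone, tagged members went from 1 to 0 in SSC and from 3 to 0 in BCSP, and Mettl3cko mRNA calls from 2 to 0 in SSC and 1 to 0 in BCSP. In BLSP 1 tagged member became 0 without the filter and in 1 fit of all populations. The ratio among WT populations went from 0 to 1 without the filter and by DESeq2's test, and in stem minus downstream from 1 to 2 with DESeq2's size factors and 3 by its test. Mettl3cko mRNA went from 0 to 1 in pre-BCSP without the filter and in 1 fit of all populations, from 1 to 2 in BCSP without the filter and with the replicate block, and on average from 0 to 1 (DESeq2's size factors, replicate block) or 2 (no filter, DESeq2's test). The Mettl3cko ratio in SSC went from 0 to 1 by DESeq2's test (Cul2). The following values changed sign: Fem1b IP over input in THY, 0.08, was -0.088 without the filter and -0.061 in 1 fit of all populations, and its Mettl3cko ratio difference in pre-BCSP, 0.02, was -0.024 without the filter.

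Leaving out each library gave 0 to 2 members for mRNA among WT populations, 3 to 5 in stem minus downstream and 1 to 3 for SSC minus THY. Tagged members were 0 to 2 in SSC, 1 to 2 in BCSP and 0 to 1 in BLSP, with 2 in pre-BCSP and 1 in PCP, THY, 6C3 and HEC throughout. The ratio gave 0 to 1 among WT populations and 1 to 2 in stem minus downstream. Mettl3cko mRNA gave 1 to 3 in SSC, 0 to 4 in pre-BCSP, 0 to 2 in BCSP and 0 to 1 on average, and its ratio 0 to 5, 0 to 2, 0 to 1 and 0 to 1, and 0 to 1 for a change among populations. Fem1b spanned -0.42 to 0.064 for mRNA SSC minus THY, -0.69 to 0.30 for IP over input in BCSP, -0.15 to 0.084 in THY, and -0.62 to 0.051 (SSC) and -0.15 to 0.40 (pre-BCSP) for the Mettl3cko ratio. These fits reuse the trend of the full fit, and an arm left with 1 library is assumed to vary like the others.

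Counts over all genes moved by over 1.5 times for Mettl3cko mRNA on average (1208 against 2200 without the filter and 2408 by DESeq2's test), the ratio among WT populations (123 against 866 and 1000), the Mettl3cko ratio on average (803 against 1411 and 2239) and its change among populations (58 against 283 and 708), Mettl3cko mRNA in pre-BCSP by the study's thresholds (1339 against 2244 without the filter), and the stem minus downstream ratio (1227 against 1953 by DESeq2's test). For Mettl3cko mRNA at an adjusted p in SSC, pre-BCSP and BCSP, 0 genes became 793, 245 and 540 without the filter and 288, 0 and 46 with the replicate block. For its change among populations 0 became 80 and 2 in these fits, and for the Mettl3cko ratio in SSC, pre-BCSP and BCSP 0 became 90, 476 and 129 without the filter. Same-numbered libraries of Mettl3cko and WT correlated at -0.004 to 0.005 and those of WT populations at -0.188 to 0.116, so they share a number only. With the replicate block the averaged Fem1b mRNA difference had an adjusted p of 0.0370, and no IP over input or ratio call of a member changed. The 2 libraries per condition and the scatter of the Mettl3cko IP libraries limit all genotype comparisons.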

Other observations

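The 5 genes whose mean input level over the 8 WT populations ran most like that of Fem1b were Grrp1 (Pearson's r 0.971), Notch4 (0.965), Iqsec2 (0.956), Cysltr2 (0.954) and Ssh1 (0.948), the highest of 20059 genes. The 8 points are means of 2 libraries of the same populations, so this describes a shared order among populations. Endothelial markers, 4 genes, also peaked in PCP, the population with the highest Fem1b, at 76.1 to 80.0 CPM against at most 18.8 elsewhere in WT. Their part in the order of Fem1b was not tested.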
